A study of Mus musculus with 9 samples.

Results

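A set of 41 genes that build the shared framework of the sarcomere was followed across 3 mouse genotypes. The genes encode proteins of the Z-disc, of the M-band and of the thin filaments, together with factors that assemble or stabilise them. They were taken by name from the 56805 genes of the deposited table. All 41 were found there, and all 41 passed the filter on low values, a normalized count of at least 10 in at least 3 libraries.

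RNA came from the left tibialis anterior (TA), a mostly fast-twitch muscle of the lower leg, of male mice 13 months old. The mice were labelled WT, Svil-KO or Svil-Mut, with 3 mice per genotype and 1 library per mouse, and no treatment is named for any group. Svil encodes supervillin, a protein of the membrane skeleton that binds actin and myosin. The labels do not describe either Svil allele, the strain background or a Cre driver, so it is not known here which part of the gene was altered, and in which cells. All 9 libraries carry the same batch label.

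The sarcomere is the repeating contractile unit of striated muscle. Actin thin filaments are anchored in the Z-disc, where alpha-actinin crosslinks them, and myosin thick filaments are held in register at the M-band by the myomesins. Titin spans from Z-disc to M-band, nebulin runs along the thin filament, and capping proteins, tropomodulins and leiomodins set the ends of the thin filament. Many Z-disc proteins also respond to stretch and load, and several of these proteins have forms that differ between slow and fast fibres.

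Sequences upstream of the start sites are given for 3 genes whose values stand out in the comparisons. Acta1, skeletal muscle actin, was the most abundant of the 41 genes, Myom3 had the smallest p-value in any comparison, and Csrp3 had the largest fold change. The 150 bases before a RefSeq start site (GRCm38.p6) are written 5′ to 3′ on the strand of the gene. Capitals mark matches to a CArG box, the recognition sequence of serum response factor, to a MEF2 site, or to the MCAT element (CATTCC), the recognition sequence of TEAD factors. The Acta1 stretch is chr8:123894776-123894925 (minus strand), the Myom3 stretch chr4:135759565-135759714 (plus strand) and the Csrp3 stretch chr7:48848052-48848201 (minus strand).

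Acta1: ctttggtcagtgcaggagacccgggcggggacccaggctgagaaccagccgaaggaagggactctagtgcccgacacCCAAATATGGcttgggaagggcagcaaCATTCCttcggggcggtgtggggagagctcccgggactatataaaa
Myom3: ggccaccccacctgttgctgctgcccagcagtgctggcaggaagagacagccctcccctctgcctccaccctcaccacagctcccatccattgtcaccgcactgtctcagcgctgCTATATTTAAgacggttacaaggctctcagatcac
Csrp3: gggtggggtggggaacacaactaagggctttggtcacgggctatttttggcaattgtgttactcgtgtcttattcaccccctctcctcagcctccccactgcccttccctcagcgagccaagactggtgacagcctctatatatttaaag

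The Acta1 stretch held a CArG box that began at base -73 from the start site and an MCAT element at -46, and the Myom3 stretch held a MEF2 site at -35. The Csrp3 stretch held none of the 3 motifs as searched. Csrp3 has another RefSeq start site, whose bases are not printed (chr7:48843672-48843821 before it), and none of the motifs was found there either. Windows from 250 bases before to 50 after a RefSeq start site were searched on both strands for all genes, and 34 of the 41 genes matched, with 40 windows between them. A CArG box was found in 5 of these 40 windows (12.5%, in Acta1, Actc1, Ldb3 and Myom1) and in 535 of all 32851 windows (1.63%). A MEF2 site was found in 7 of the 40 (17.5%, in Klhl41, Myom3, Synpo2, Synpo2l, Ttn and Xirp2) and in 610 of all windows (1.86%). The MCAT element was found in 12 of the 40 (30%) and in 4817 of all windows (14.7%), among them that of Pdlim3 at -11 and -201. CArG boxes and many MEF2 sites read alike on both strands and were counted once per window. A match describes letters in a window and is not a measured binding site.

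Depth was 36234428 to 48762188 reads per library. Of the reads in WT, the 41 genes took 9.93% ± 0.14 (SD, n = 3), against 10.02% ± 0.36 for Svil-KO and 11.1% ± 0.53 for Svil-Mut. This share is weighted to the most abundant gene, Acta1, with mean normalized counts of 1999004 in WT and 2507172 in Svil-Mut. Log2 fold changes in Svil-Mut against WT were positive for 20 of the 41 genes and negative for 21. Svil itself was at 8686, 9373 and 8407 normalized counts in WT, 7402, 6746 and 6656 in the libraries labelled Svil-KO, and 4615, 3939 and 4582 in Svil-Mut. The log2 fold change was -1.01 ± 0.086 (SE) in Svil-Mut against WT (limma adjusted p = 0.000941) and -0.35 ± 0.086 in Svil-KO against WT (limma adjusted p = 0.997). The libraries labelled Svil-KO thus held 0.786 times the WT level of Svil transcripts, and a count per gene leaves unknown whether these were intact. In a principal component analysis of all tested genes, Svil-Mut replicates 2 and 4 stood apart, replicate 2 on the first component (17.8% of the variance) and replicate 4 on the second (14.7%).

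Marker lists differed between libraries as well, and they are given here because they touch the results. The summed count of 9 slow fibre genes was 8372 to 13767 in WT. In Svil-KO it was 26786, 8492 and 15153 in replicates 1, 3 and 4. In Svil-Mut it was 6324, 3440 and 11672 in replicates 1, 2 and 4. The summed count of 20 immediate early genes was 46591 to 61961 in Svil-Mut, against 19271 to 19312 in WT. It was 29479, 19566 and 19327 in Svil-KO replicates 1, 3 and 4. The summed count of 8 red blood cell genes was 9166 to 13242 in WT and 10717 to 53916 in Svil-Mut, with the highest value in replicate 4. Of 8 cardiac genes, Myl7 and Nppb were at 0 in every library, and the sum of the 8 was 453 to 971. Fast fibre markers, which define the TA, were abundant as a sum in every library, with Myh4, the myosin of the fastest fibres, at 1777797 to 2610190. Single genes of this list differed. In Svil-Mut against WT, 4 of its 13 genes had an unadjusted limma p under 0.05, 3 higher and 1 lower, beside 4.71% and 5.32% of all genes. In Svil-Mut replicate 2, Myh1 was at 68852 (WT 179997 to 258741) and Myh2 at 3474 (WT 31100 to 44893).

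Across the 41 genes the level per kilobase of annotated exon spanned from 1301435 ± 20933 for Acta1 to 119.6 ± 23.7 for Myom3 in WT (normalized count per kilobase, SD, n = 3). Tcap, the titin cap of the Z-disc, was second at 207578 ± 16568. It was followed by Mybpc2, the fast myosin-binding protein C, at 55748 ± 2512, by Des, the intermediate filament desmin, at 46017 ± 2850, and by Myot, the alpha-actinin partner myotilin, at 42128 ± 3561. Des and Myot did not differ beyond their spread. Mybpc1, the slow myosin-binding protein C, was at 27488 ± 934 and Cryab, a small heat shock chaperone of desmin, at 17049 ± 2629. Ldb3, Actn2 and Tmod4 came next at 12256 ± 922, 11987 ± 1278 and 11784 ± 782, and the order of these 3 could not be told from their spread. Ttn, counted over 116825 bases of exon, stood at 2426 ± 529, and the exon length used joins all annotated isoforms, so a gene with many unused exons is placed too low. The 4 lowest, far under the rest, were Obsl1 at 208 ± 26, the stretch-responsive Ankrd1 at 184 ± 98, Mybph at 177 ± 39 and Myom3.

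**Figure D1:**
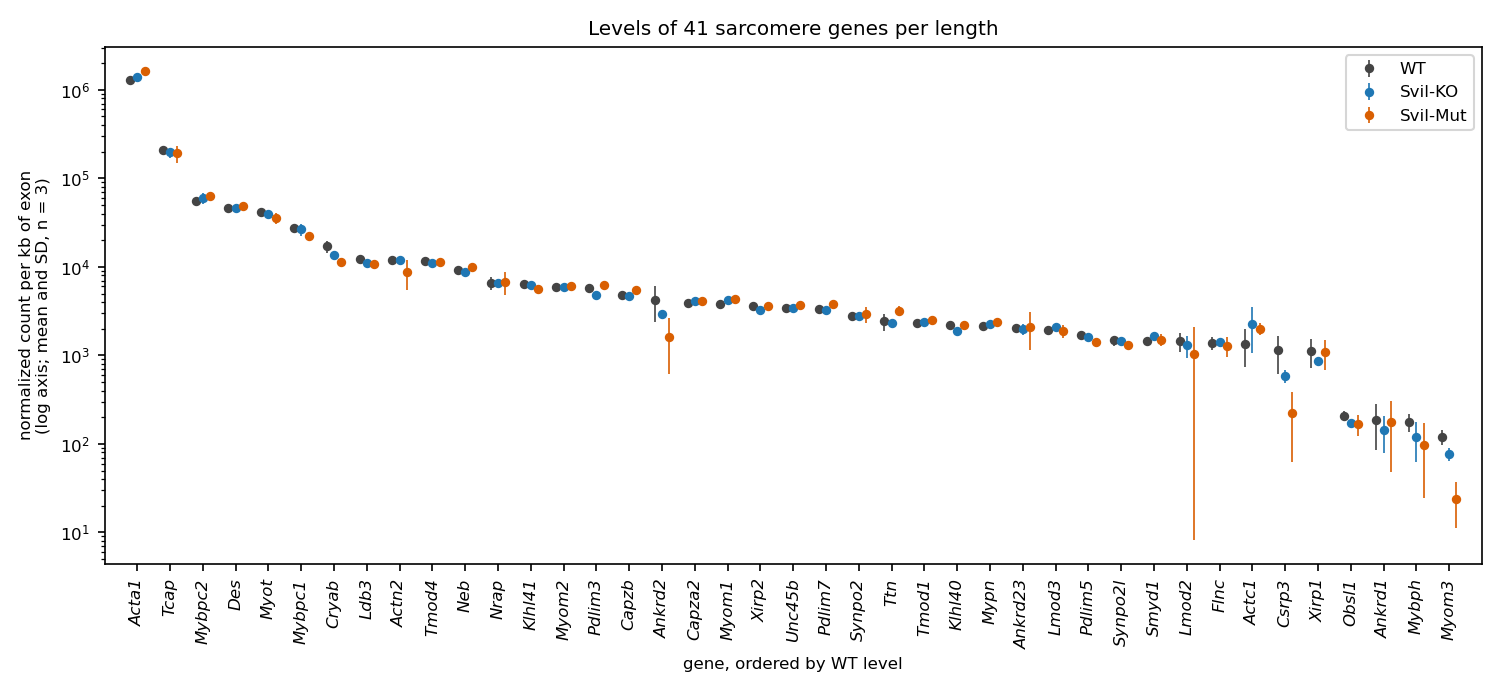
Normalized count per kilobase of annotated exon (log axis) for the 41 genes, ordered by the WT level, with points and bars for the mean and SD of 3 libraries per genotype (WT grey, Svil-KO blue, Svil-Mut orange). Acta1 is highest at 1301435 in WT and Myom3 lowest at 119.6, and the genotypes overlap for most genes.

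Replicates were closer for some of the genes than for others. The median coefficient of variation over the 41 genes was 11.1% for Svil-Mut, 9.02% for WT and 7.76% for Svil-KO. It exceeded 30% for 9 genes in Svil-Mut, 5 in WT and 3 in Svil-KO. Pdlim3, a PDZ and LIM domain protein that binds alpha-actinin, was the steadiest within WT (1.19%) and within Svil-KO (0.586%). Lmod2, a leiomodin that lengthens thin filaments, varied most in Svil-Mut (99.2%), where its counts of 1387, 437 and 4354 spanned a 9.96-fold range. Svil-Mut replicate 2 was the lowest of all 9 libraries for 14 of the 41 genes and the highest for 10, and Svil-Mut replicate 4 was the lowest for 6 and the highest for 11. Group values of Svil-Mut rest on libraries that differed from each other.

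**Figure D2:**
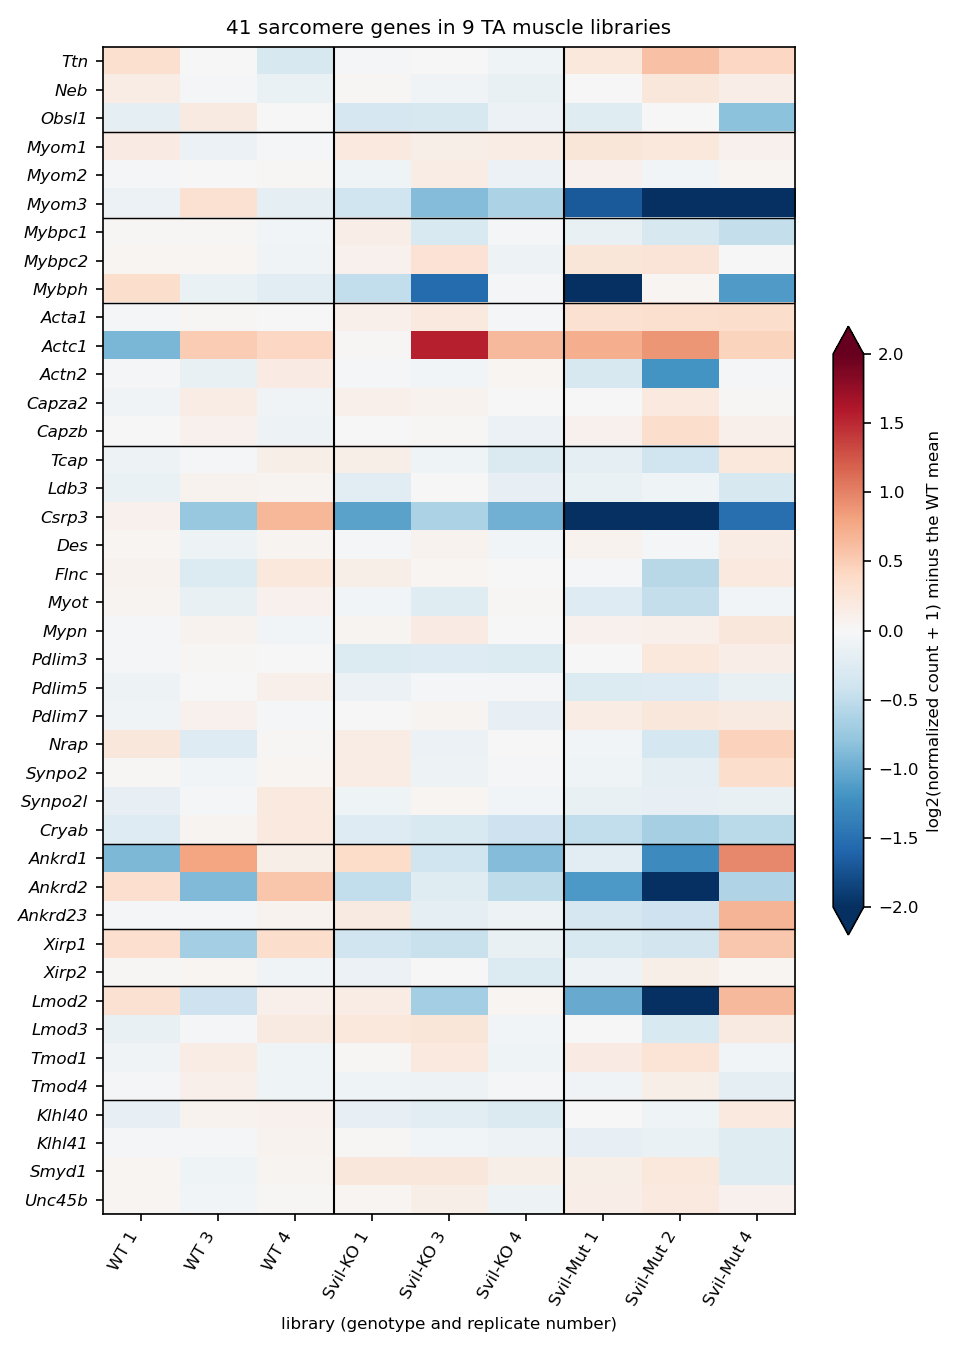
Heat map of log2(normalized count + 1) minus the WT mean for the 41 genes (rows, separated by role) in the 9 libraries (columns, by genotype and replicate number), with the colour scale ending at -2 and 2. Myom3 and Csrp3 are blue in each Svil-Mut library, and in Svil-Mut replicate 2 Myom3 (-3.46), Csrp3 (-4.27) and Lmod2 (-2.67) lie beyond the end of the scale.

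The first comparison, Svil-KO against WT, asked what differs in the muscle of the mice labelled Svil-KO. None of the 41 genes passed the threshold, and the values of most genes lay within the WT range or next to it. The lowest p-value belonged to Pdlim3, which was lower in every library labelled Svil-KO by a small and uniform amount. Cryab and Klhl40, which stabilises nebulin and leiomodin-3, were also below all WT libraries. Of all 15279 genes tested, 0% passed at a limma adjusted p under 0.05, and the adjusted p was at least 0.997 for each of the 41.

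Without adjustment, 3 of the 41 genes had a limma p under 0.05, none higher and 3 lower in Svil-KO. Among all tested genes this share was 4.11%, with 2.36% higher and 1.75% lower. Libraries of the 2 genotypes did not overlap for 5 of the 41 genes, and for 10.7% of all genes. Log2 fold changes were positive for 13 genes and negative for 28, with a median of -0.04, against 0.0031 over all genes tested. The count of 3 was 1 without WT replicate 4, 5 without Svil-Mut replicate 2, which enters through the shared variance, and 6 when only these 2 genotypes were fitted.

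Pdlim3 (ENSMUSG00000031636.7, GRCm38 chromosome 8, 45885461 to 45919548, plus strand) was at 29225, 29927 and 29549 normalized counts in WT and at 24564, 24639 and 24361 in the libraries labelled Svil-KO. The gap between the genotypes was far wider than the SD of either (351 and 144), with means of 29567 and 24522. Its log2 fold change was -0.27 ± 0.065 (SE, limma unadjusted p = 0.00163). Cryab was at 20964, 26088 and 28593 in WT and at 20899, 20317 and 18798 in Svil-KO, so the groups were separated by a narrow gap (log2 fold change -0.32 ± 0.11). Cryab lies across from Hspb2 on the other strand, and since the kit does not mark strand, reads of their overlapping parts cannot be told apart. The spans of 19 of the 41 genes in all overlap a gene on the other strand. Acta1 (Gm20388), Ttn (Gm13938), Mybpc1 (Gm48752) and Smyd1 (Krcc1) are among them, and Pdlim3, Myom3, Csrp3 and Actn2 are not. These spans include introns, and how many of the 19 share exon sequence was not checked. Klhl40 was at 4865, 5737 and 5787 in WT and at 4857, 4657 and 4476 in Svil-KO, with the lowest WT library close to the highest Svil-KO library (log2 fold change -0.22 ± 0.097).

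The 2 other genes without overlap lay on opposite sides of WT. Smyd1, a methyltransferase of myofibril assembly, was at 6766, 6186 and 6827 in WT and at 7681, 7736 and 7130 in Svil-KO (log2 fold change 0.19 ± 0.11, limma unadjusted p = 0.110). Myom3 was at 656, 886 and 625 in WT and at 540, 390 and 460 in Svil-KO (log2 fold change -0.63 ± 0.37, limma unadjusted p = 0.115). For 3 more genes of the 8 with the smallest p the libraries overlapped. Myom1, the main M-band crosslinker, was at 44049, 36283 and 38463 in WT and 45094, 42902 and 43568 in Svil-KO. Actc1, the actin of heart and developing muscle, was at 1057, 2853 and 2659 in WT and 2028, 5865 and 3135 in Svil-KO. Its log2 fold change of 0.74 became 0.28 without WT replicate 1 and 0.33 without Svil-KO replicate 3. Xirp2, an actin-binding Xin repeat protein, was at 43315, 44053 and 40821 in WT and 39503, 42265 and 35164 in Svil-KO, and its log2 fold change of -0.14 was -0.06 without Svil-KO replicate 4.

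The large structural genes were close to WT in Svil-KO, with intervals that bound the difference. The 95% limma interval of the log2 fold change was -0.35 to 0.29 for Ttn, -0.27 to 0.14 for Neb, -0.17 to 0.16 for Des and -0.09 to 0.28 for Acta1. It was -0.52 to 0.49 for Actn2, the alpha-actinin of all fibre types, and -0.41 to 0.24 for Tcap. For genes with few reads or uneven libraries the interval was too wide to place them, as for Csrp3 (-2.17 to 0.40), Mybph (-1.84 to 0.48), Ankrd1 (-1.52 to 0.92), Ankrd2 (-1.51 to 0.68) and Lmod2 (-1.54 to 1.21). The other genes had log2 fold changes from -0.33 (Xirp1) to 0.13 (Lmod3).

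**Figure D3:**
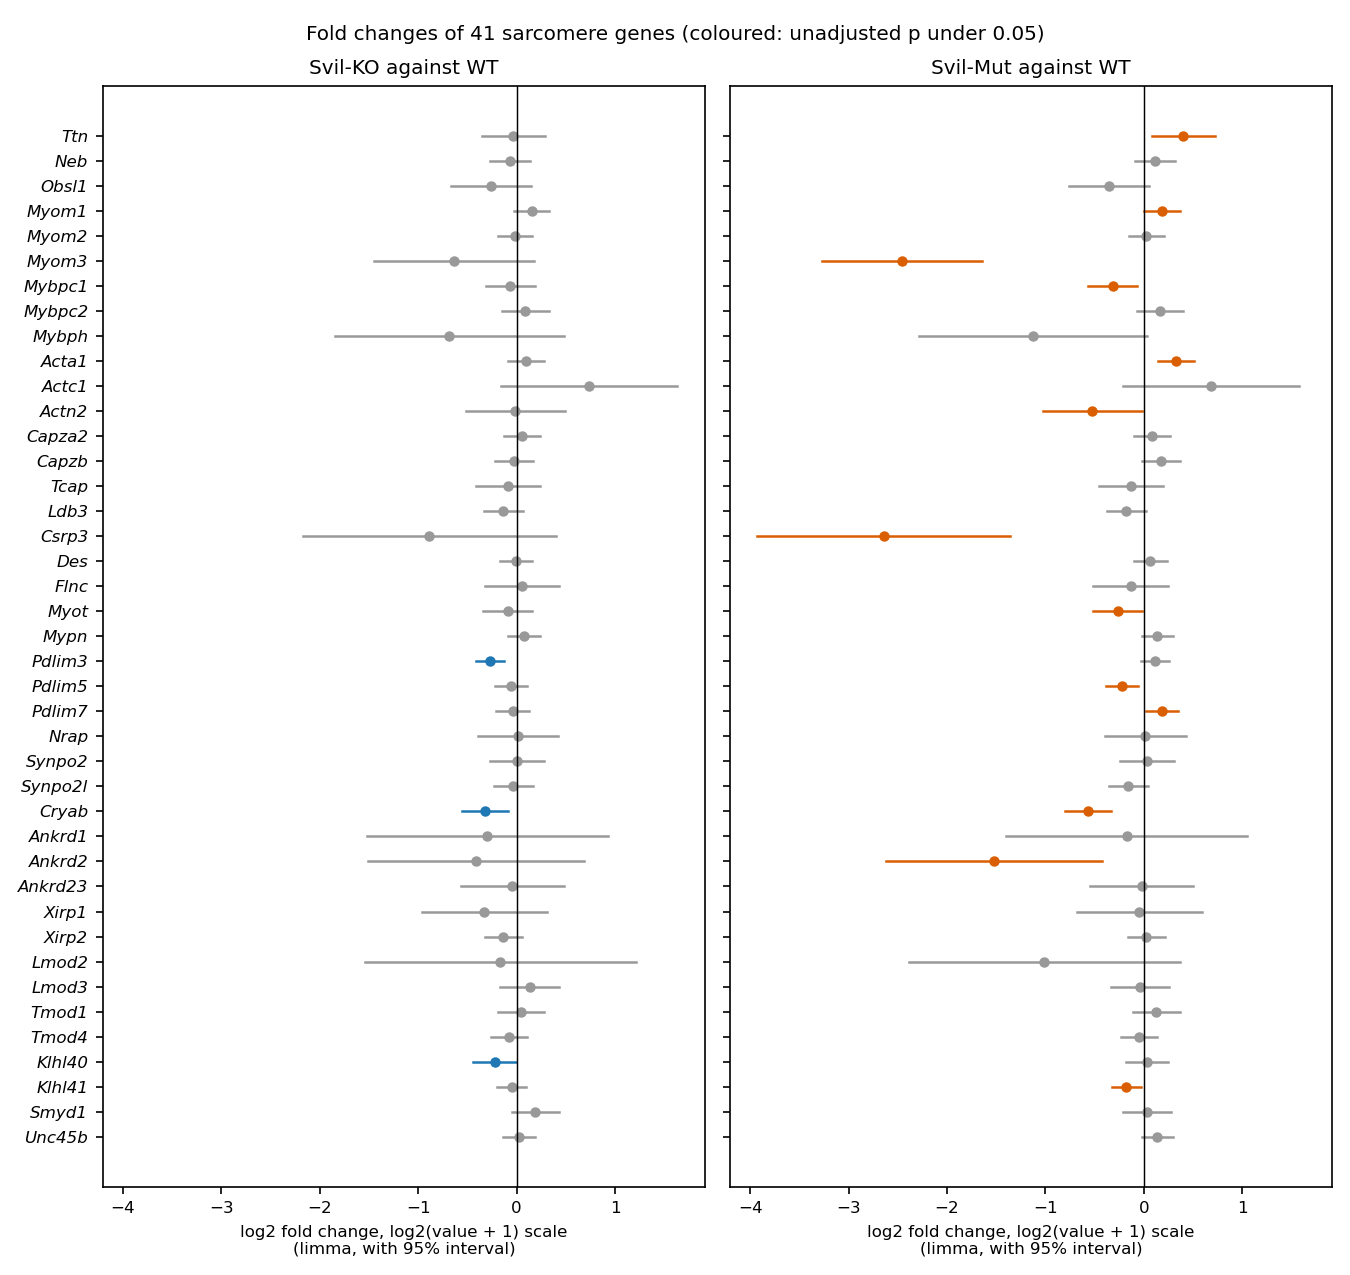
Log2 fold changes of the 41 genes with 95% limma intervals, for Svil-KO against WT (left) and Svil-Mut against WT (right), on the log2(normalized count + 1) scale and ordered by role, coloured where the unadjusted p was under 0.05. The left panel has 3 coloured genes and the right panel 13, with Myom3 (-2.46) and Csrp3 (-2.64) farthest from 0.

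The second comparison, Svil-Mut against WT, shares its WT libraries with the first. The M-band gene Myom3, the Z-disc LIM protein Csrp3 and the chaperone Cryab were lower in all 3 Svil-Mut libraries than in any WT library, while Acta1 was higher in all 3. The mean was 0.202 times the WT mean for Myom3, 0.194 times for Csrp3, 0.671 times for Cryab and 1.25 times for Acta1. None of the 41 genes passed at a limma adjusted p under 0.05, which 0.0393% of all tested genes (6 of 15279) did. Myom3 came closest, with a limma adjusted p = 0.0531. DESeq2 on the recovered reads called these 4 genes, with adjusted p = 2.55e-08 for Myom3, 0.00024 for Cryab, 0.000999 for Acta1 and 0.0459 for Csrp3, and edgeR called 0 (adjusted p = 0.0772 for Myom3).

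In Svil-Mut against WT, 13 of the 41 genes had an unadjusted limma p under 0.05, 4 higher and 9 lower. Of all tested genes, 10% had such a p, 4.71% higher and 5.32% lower. The libraries did not overlap for 10 of the 41 genes, 4 higher and 6 lower, and for 13.9% of all genes. Log2 fold changes were positive for 20 genes and negative for 21, with a median of -0.02, against -0.0046 over all genes. With a single library left out, the 13 became 6 to 16, with 6 for the fit that lacked WT replicate 4. Of the Svil-Mut libraries, leaving out replicate 2 gave 11 and leaving out replicate 4 gave 16. Without the mean-variance trend it was 5.

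Among the giant proteins, Ttn (ENSMUSG00000051747.14, GRCm38 chromosome 2, 76703980 to 76982547, minus strand) was at 346386, 280803 and 222902 in WT and at 321506, 417539 and 370930 in Svil-Mut. One WT library lay above the lowest Svil-Mut library, so the groups overlapped (log2 fold change 0.40 ± 0.14, limma adjusted p = 0.404), and the value was 0.24 without WT replicate 4. Neb was at 221748 to 269162 in WT and 240823 to 282992 in Svil-Mut, and Obsl1, which links M-band titin and myomesin, at 1552 to 1986 and 996 to 1745. Both overlapped.

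Of the M-band genes, Myom3 (ENSMUSG00000037139.15, GRCm38 chromosome 4, 135759715 to 135815564, plus strand), the myomesin known from fibres of intermediate speed, was at 656, 886 and 625 in WT and at 221, 64 and 152 in Svil-Mut. The highest Svil-Mut library was below the lowest WT library by more than the SD of either group (143 and 78.7), with a log2 fold change of -2.46 ± 0.37 (SE; 95% interval -3.27 to -1.64; limma adjusted p = 0.0531). It passed when Svil-Mut replicate 2 was left out (-1.95, limma adjusted p = 0.0192) and when replicate 1 of that genotype was (-2.84, limma adjusted p = 0.0216). It did not pass without WT replicate 1, 3 or 4 (limma adjusted p = 0.145, 0.175 and 0.214). Nor did it without the variance trend (limma adjusted p = 0.273) or with only the 2 genotypes (limma adjusted p = 0.131). Of 20 alternatives, 5 called Myom3 and 15 did not. In whole muscle, fewer cells of a type and less RNA per cell cannot be told apart. Myom1 and Myom2, the fast-fibre myomesin, were not lower. Myom1 was at 46841, 45923 and 41884 in Svil-Mut (log2 fold change 0.18, overlapping WT), and Myom2 was at 56083, 50817 and 54309 against 51552, 53037 and 53544 in WT (0.03).

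Among the myosin-binding proteins, Mybpc1 was at 127084, 126675 and 119561 in WT and at 111925, 99530 and 89740 in Svil-Mut, all below WT (log2 fold change -0.32 ± 0.11, limma adjusted p = 0.401). Mybpc2 was at 190873 to 207294 in WT and 199942 to 239805 in Svil-Mut (0.16, overlapping). Mybph, which lies opposite Adora1, ranged from 82 to 418 in Svil-Mut and from 350 to 518 in WT (-1.13, overlapping).

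Actin and its partners included the most abundant transcript. Acta1 (ENSMUSG00000031972.5, GRCm38 chromosome 8, 123891769 to 123894751, minus strand) was at 1969095, 2033009 and 1994907 in WT and at 2475510, 2502111 and 2543895 in Svil-Mut. The groups were far apart beside their SDs of 32154 and 34472 (log2 fold change 0.33 ± 0.083, limma adjusted p = 0.283). With quantile normalization, which sets the most abundant values of all libraries equal, it was 0.03, so its size depends on that choice. That setting leaves little difference in so abundant a gene whatever its change, so it cannot decide the size. With a library left out the log2 fold change was 0.32 to 0.34. Actc1 overlapped, with 3319, 3691 and 2730 in Svil-Mut (0.69). Actn2 was at 44789, 41026 and 50653 in WT and at 36273, 19712 and 43969 in Svil-Mut, low in replicate 2 and within the WT range in replicate 4 (-0.52, limma adjusted p = 0.476, and -0.18 without replicate 2). Capza2 and Capzb, the subunits that cap the thin filament at the Z-disc, had log2 fold changes of 0.08 and 0.18, both with overlap.

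**Figure D4:**
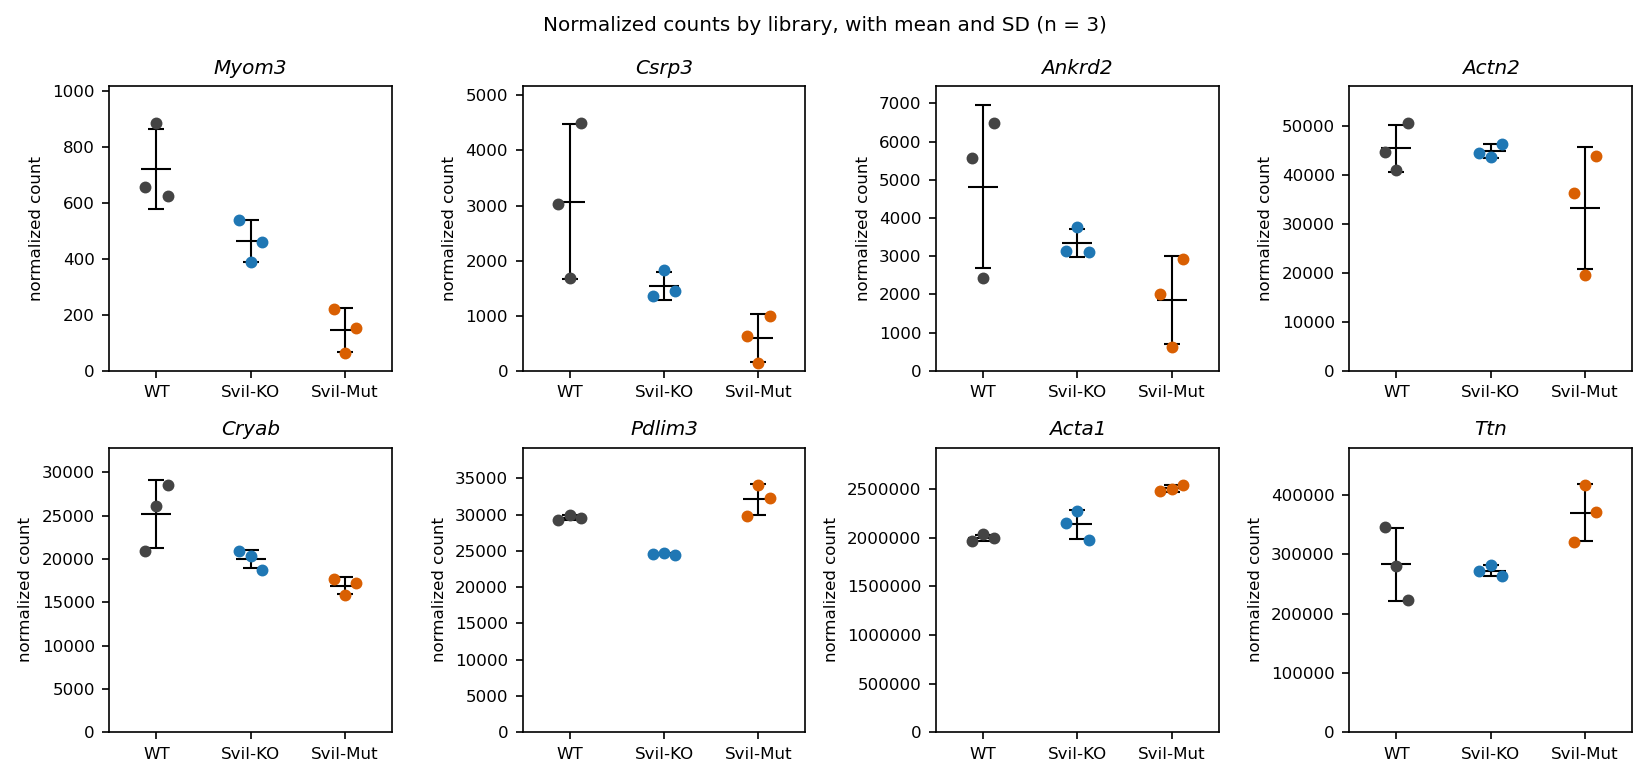
Normalized counts of Myom3, Csrp3, Ankrd2, Actn2, Cryab, Pdlim3, Acta1 and Ttn in each library (linear axes from 0), with the mean and SD of 3 libraries per genotype. Myom3, Csrp3 and Cryab of Svil-Mut lie wholly below WT and Acta1 wholly above, while the Pdlim3 values of the 3 libraries labelled Svil-KO (24361 to 24639) lie below the other 6.

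Of the 14 Z-disc scaffold and filament genes, 5 had an unadjusted limma p under 0.05 in Svil-Mut against WT, 1 higher (4.71% of all genes) and 4 lower (5.32% of all genes). Csrp3, the muscle LIM protein that binds alpha-actinin and telethonin, was at 3028, 1683 and 4495 in WT and at 641, 146 and 1001 in Svil-Mut. Replicates spread widely in both groups, though none overlapped (log2 fold change -2.64 ± 0.58, limma adjusted p = 0.228). The value was -1.82 without Svil-Mut replicate 2. Cryab was at 17702, 15831 and 17223 in Svil-Mut, below every WT library (-0.57 ± 0.11, limma adjusted p = 0.141). Without WT replicate 1 it passed (-0.69, limma adjusted p = 0.0378). Of 20 alternatives, 2 called Cryab, that fit and DESeq2, and 18 did not. Of the Pdlim genes, Pdlim5 was at 13798, 14877 and 16004 in WT and lower at 12302, 12460 and 13426 in Svil-Mut (-0.22 ± 0.074, limma adjusted p = 0.364). Pdlim7 was at 15428, 17096 and 15946 in WT and higher at 17808, 18989 and 18188 in Svil-Mut (0.18 ± 0.075, limma adjusted p = 0.443). Pdlim3 was at 29863, 34110 and 32329 in Svil-Mut (0.12, limma adjusted p = 0.591), with its lowest library just inside the WT range. Myot had a log2 fold change of -0.26 (limma adjusted p = 0.458, overlapping), which was -0.16 without Svil-Mut replicate 2. Mypn, the Z-disc protein myopalladin, was higher without overlap (0.14, limma adjusted p = 0.569). The other 7 genes overlapped, and their log2 fold changes were 0.07 for Des, 0.03 for Synpo2, 0.02 for Nrap, -0.13 for Flnc, -0.13 for Tcap, -0.16 for Synpo2l and -0.18 for Ldb3.

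All 3 stretch-responsive ankyrin repeat genes overlapped WT in Svil-Mut. Ankrd2, known from slow and stretched muscle, was at 5572, 2418 and 6483 in WT and at 2001, 628 and 2927 in Svil-Mut, with WT replicate 3 below Svil-Mut replicate 4 (log2 fold change -1.52 ± 0.50, limma adjusted p = 0.361). It was -0.87 without Svil-Mut replicate 2. Ankrd1 ranged from 254 to 821 in WT and from 197 to 925 in Svil-Mut, and Ankrd23 was at 4298, 4082 and 8717 in Svil-Mut against 5263 to 5700 in WT. The Xin genes overlapped too, with log2 fold changes of -0.04 for Xirp1 and 0.02 for Xirp2. In Xirp1, Svil-Mut replicate 4 (9012) was the highest of all libraries.

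At the pointed ends of the thin filament, no gene had an unadjusted p under 0.05 in Svil-Mut against WT. Lmod2 had a log2 fold change of -1.01 (95% interval -2.39 to 0.37), which rests on 3 unequal libraries. Lmod3 was at -0.04, and the tropomodulins Tmod1 and Tmod4, which cap that end, were at 0.13 and -0.05. Among the assembly factors, Klhl41, a stabiliser of nebulin, was at 15738, 15772 and 16900 in WT and at 14379, 14765 and 13648 in Svil-Mut, below WT in every library (-0.18 ± 0.067, limma adjusted p = 0.415). Unc45b, the myosin chaperone, was at 15661, 14698 and 15489 in WT and at 16831, 17446 and 16188 in Svil-Mut, above WT in every library (0.14, limma adjusted p = 0.567). Klhl40 (0.03) and Smyd1 (0.03) overlapped.

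The third comparison, Svil-KO against Svil-Mut, shares its libraries with the other two and tests whether the genotypes differ from each other. Pdlim3 was lower and Myom3 and Csrp3 were higher in the libraries labelled Svil-KO than in Svil-Mut, without overlap. None of the 41 genes passed at a limma adjusted p under 0.05, and 0.0458% of all tested genes (7 of 15279) did. An unadjusted p under 0.05 belonged to 13 of the 41, 7 higher and 6 lower in Svil-KO, against 10.2% of all genes, 5.51% higher and 4.67% lower. There was no overlap for 13 of the 41 genes and for 15.2% of all genes. Leaving out single libraries gave 5 to 14 genes in place of 13, with 5 when Svil-KO replicate 4 was left out, 7 for Svil-KO replicate 1 and 8 for Svil-Mut replicate 2. It was 5 without the mean-variance trend and 8 with only these 2 genotypes. The median log2 difference was -0.02, beside 0.0089 for all genes.

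Pdlim3 had the smallest p of the 41 in this comparison. Its mean of 24522 ± 144 in Svil-KO stood against 32101 ± 2133 for Svil-Mut (SD, n = 3), a log2 difference of -0.39 ± 0.065 (limma adjusted p = 0.0869; DESeq2 adjusted p = 1.09e-05). Myom3 was at 464 ± 75 and 146 ± 79, a log2 difference of 1.82 ± 0.37 (limma adjusted p = 0.152; DESeq2 adjusted p = 0.000499). Csrp3 was at 1351, 1837 and 1451 in Svil-KO, above the highest Svil-Mut library (1001), with a log2 difference of 1.75 ± 0.58 (limma adjusted p = 0.364) that was 0.94 without Svil-Mut replicate 2. The libraries of both genotypes stayed apart for each of these 3 genes.

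Ttn was at 272695, 281532 and 263653 in Svil-KO, below each Svil-Mut library (log2 difference -0.43 ± 0.14, limma adjusted p = 0.364). Acta1 was at 2153442, 2276725 and 1977073 in Svil-KO, also below each Svil-Mut library (-0.23 ± 0.083, limma adjusted p = 0.390). It was at -0.03 with quantile normalization, which cannot decide the size for so abundant a gene. Pdlim7 was at 16057, 16686 and 14420 in Svil-KO (-0.22 ± 0.075, limma adjusted p = 0.364), below Svil-Mut as well. Klhl40 had a log2 difference of -0.25 (limma adjusted p = 0.420). For Capzb, Svil-KO libraries were at 15858, 15956 and 14607 and Svil-Mut libraries at 16681, 20032 and 16962 (-0.21, limma adjusted p = 0.467, and -0.12 without Svil-Mut replicate 2). The remaining 5 of the 13 genes besides these were Cryab (0.24), Pdlim5 (0.17), Actn2 (0.51), Ankrd2 (1.11) and Mybpc1 (0.25), all higher in Svil-KO, with overlap for Actn2 and Mybpc1. Without Svil-Mut replicate 2, the difference was 0.17 for Actn2 and 0.46 for Ankrd2. That of Mybpc1 was 0.15 without Svil-KO replicate 1.

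Ratios between related genes put the isoform pairs side by side, from levels per kilobase of exon. They were chosen with results of these data known and are descriptions, since an exact permutation test of 3 against 3 libraries cannot give a p under 0.1. For Svil-Mut, Myom3 made up 0.230% ± 0.12 of the 3 myomesin genes, against 1.22% ± 0.27 in WT and 0.758% ± 0.15 in Svil-KO (SD, n = 3), with no overlap between any 2 genotypes. The ratio of Mybpc1 to Mybpc2 was 0.354 ± 0.022 for Svil-Mut, beside 0.493 ± 0.0061 for WT and 0.453 ± 0.11 for Svil-KO. Svil-Mut lay below WT throughout, but Svil-KO replicate 3 (0.326) was lower still. The ratio of Actn2 to Actn3, the alpha-actinin of fast fibres, was 0.0909 ± 0.013 in WT and 0.0882 ± 0.0091 in Svil-KO, and that of Svil-Mut (0.0495 ± 0.018) overlapped neither. Actn3 itself was at 361135 to 425304 in WT and at 423782, 502517 and 631711 in Svil-Mut replicates 1, 2 and 4. In Svil-Mut replicate 4, Actn2 (43969) was within the WT range and Actn3 above it. The ratio of Ankrd2 to Ankrd23 was 2.09 ± 0.87, 1.52 ± 0.34 and 0.755 ± 0.37 in the order WT, Svil-KO, Svil-Mut, with overlap of WT with both. For Tmod1 to Tmod4 it was 0.195 ± 0.0058, 0.213 ± 0.026 and 0.220 ± 0.0084 in that order, with Svil-Mut above WT in every library. The share of Actc1 in the summed striated actins, Acta1 plus Actc1, and the ratio of Lmod2 to Lmod3 overlapped between all genotypes. In all, 7 ratios were computed in 3 comparisons.

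**Figure D5:**
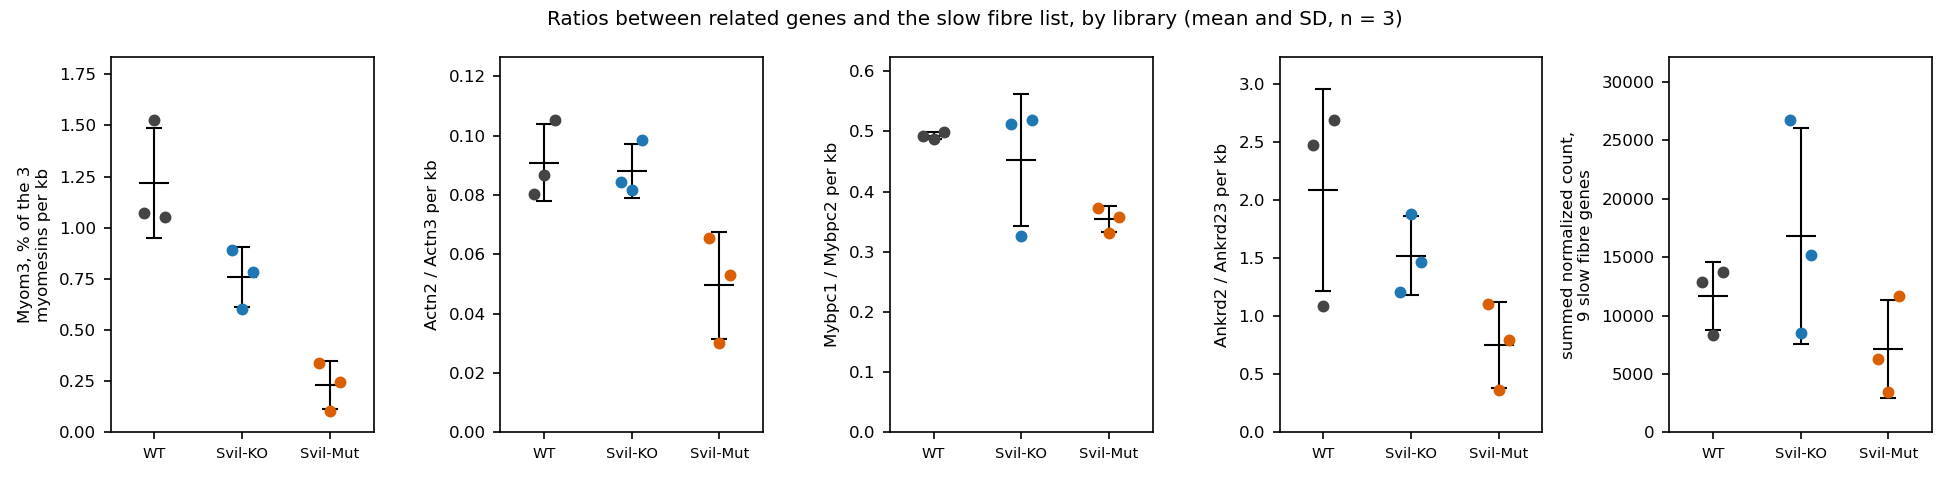
Share of Myom3 among the 3 myomesin genes, ratios of Actn2 to Actn3, Mybpc1 to Mybpc2 and Ankrd2 to Ankrd23 from levels per kilobase, and the summed normalized count of 9 slow fibre genes, by library with mean and SD (n = 3, axes from 0). Svil-Mut replicate 2 is lowest in the myomesin share (0.104%), in Actn2 to Actn3 (0.0300) and in the slow fibre sum (3440).

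Several of the genes that were low in Svil-Mut are known to be more abundant in slow or oxidative fibres. The summed count of the slow fibre list was below the WT range in Svil-Mut replicates 1 and 2 and within it in replicate 4. Single genes of the list differed from the sum. In replicate 1, Myl2, Myl3, Tnni1 and Atp2a2 were below the WT range, while Myh7, Tnnt1, Tnnc1, Casq2 and Myh7b were within it. Casq2 of replicate 4 (4030) was above its WT range (1940 to 3092). All 9 slow fibre genes had negative log2 fold changes in Svil-Mut against WT, with a median of -0.87, although 1 of the 9 had an unadjusted limma p under 0.05 and 0 passed. The mean log2 level of the list relative to WT was -0.55, -2.22 and 0.08 in Svil-Mut replicates 1, 2 and 4. Myh2, the myosin of fast oxidative fibres, was at 39184, 31100 and 44893 in WT and at 15669, 3474 and 21748 in Svil-Mut (log2 fold change -1.84, limma adjusted p = 0.325). Svil-Mut replicate 4 had its slow fibre sum within the WT range, but Myh2 (21748) below the lowest WT value of 31100. In that library Myom3 was at 152 against a lowest WT value of 625, Csrp3 at 1001 against 1683 and Ankrd2 at 2927 against 2418. This is 1 of the 3 Svil-Mut libraries, and the part of fibre type in these values was not tested. The immediate early sum was above WT in all 3 Svil-Mut libraries and the red blood cell sum in replicates 2 and 4, and the part of either was not tested.

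The genes whose pattern over the 9 libraries was most like that of Myom3 were found among 11651 tested genes with a mean of at least 50. They were Chd1l, a chromatin remodeller (Pearson correlation of log2 values 0.963), Svil (0.962), Mcm4, a subunit of the replication helicase (0.961), Arhgef25 (0.959) and Gm12002 (0.952). Chd1l was at 1021, 1094 and 1051 in WT, at 1032, 1053 and 1045 in Svil-KO and at 893, 777 and 839 in Svil-Mut. These correlations are over 9 libraries that share the same genotype groups, so they are a description of likeness.

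A further 59 genes of the sarcomere and Z-disc, taken as a second list, were all tested. In Svil-KO against WT, 0 passed and 1, the small heat shock protein Hspb1, had an unadjusted limma p under 0.05, as did 4.11% of all genes. The 4 genes with the smallest p were Hspb1 (log2 fold change -0.38), Myoz3 (-0.41), Hspb6 (-0.18) and Trim63, a ubiquitin ligase of muscle wasting (0.20), each with a limma adjusted p = 0.997. In Svil-Mut against WT, 0 passed and 8 had an unadjusted p under 0.05, 6 higher and 2 lower, beside 4.71% and 5.32% of all genes, and the median log2 fold change was 0.06. Fhl1, a LIM protein, was at 67271, 45520 and 69686 in WT and at 42071, 19309 and 32098 in Svil-Mut (-1.01, limma adjusted p = 0.279). Myoz2, the calsarcin of slow fibres, was at 1740, 1538 and 1669 in WT and at 583, 186 and 1125 in Svil-Mut (-1.73, limma adjusted p = 0.311), and the value was -1.02 without Svil-Mut replicate 2. Both were lower in every Svil-Mut library. Csrp1 (0.38, limma adjusted p = 0.302) and Zyx, the focal adhesion protein zyxin (0.51, limma adjusted p = 0.326), were higher without overlap.

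Between Svil-KO and Svil-Mut, 0 of the 59 passed, and 13 had an unadjusted limma p under 0.05, 2 higher and 11 lower in Svil-KO, beside 5.51% and 4.67% of all genes, with a median log2 difference of -0.11. The 4 with the smallest p were Csrp1 (-0.40, limma adjusted p = 0.266), Fhl1 (0.90, limma adjusted p = 0.300), Filip1 (-0.32, limma adjusted p = 0.301) and Zyx (-0.52, limma adjusted p = 0.321). DESeq2 called Csrp1 (adjusted p = 0.0382). Fhl1 was at 0.59 without Svil-Mut replicate 2.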

How the data were processed

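Poly(A)-primed, full-length cDNA was amplified with a SMARTer v4 kit and tagmented with Nextera XT, per the labels' protocols. Per the submitters' processing notes, HISAT2, featureCounts and DESeq2 were used on mm10. Neither their versions nor an annotation release is given in the sources used here. The values deposited by the authors are signals, read counts that each library's size factor had scaled. In the library with the lowest share, 99.99% of the values above 0 came out as whole steps (tolerance 0.001), so whole reads were recovered from these deposited values.

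The main test was limma 3.58.1 (R 4.3.3) on log2(normalized count + 1). One fit held the 9 libraries, with a variance trend and no factor beside genotype. It covered 15279 genes with a normalized count of at least 10 in at least 3 libraries, with Benjamini-Hochberg adjustment over all of them and calls at an adjusted p under 0.05. Fold changes are on this scale, which understates those of low genes. EdgeR 4.0.16 found 0 members in every comparison, and DESeq2 1.42.0, on the recovered reads, found 0, 4 and 2.

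The members and gene lists were chosen with earlier results of these data known. Library values and full statistics are given for Svil, for any member that passed, and for the 8 members with the smallest p in each comparison, with the 4 smallest in the second list. Other members are given by ranges, fold changes or intervals, and library values of some were added after they were seen. Gene positions and exon lengths came from GENCODE M21 (GRCm38), matched by symbol for 49198 of 56805 genes, and promoters from RefSeq (GRCm38.p6). Reads without molecular identifiers are not independent molecules. Figures were drawn with matplotlib 3.10.9 in Python 3.11.15.

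Alternatives were other pseudocounts (0.5 and 10), no filter, a mean of at least 50, equal totals, quantile normalization, no variance trend, only 2 genotypes, a replicate block, edgeR, DESeq2 and leaving out each library. Size factors cancel any shift that most genes share, which would not be seen.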

Additional observations from a re-analysis of the deposited data

Results flagged for a closer look

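For Pdlim3, the libraries of Svil-KO and Svil-Mut lay on different sides of the WT mean. Each library labelled Svil-KO was 0.26 to 0.28 below the WT mean on the log2 scale, and each Svil-Mut library was 0.01 to 0.21 above it. Svil-Mut overlapped WT, with a log2 fold change of 0.12 (limma adjusted p = 0.591). The log2 difference of Svil-KO minus Svil-Mut was -0.39 ± 0.065 (SE; limma unadjusted p = 0.000102, adjusted p = 0.0869), which missed the threshold in limma, and DESeq2 called it (adjusted p = 1.09e-05). Both genotypes are set against the same WT libraries, whose Pdlim3 values spread little (29225 to 29927).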

How the results depend on the processing

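Each result was recomputed under 20 alternatives, 11 of them other settings and 9 leaving out 1 library each. In Svil-KO against WT, 0 members passed in all 20. The members with an unadjusted p under 0.05 were 3, and 6 with only the 2 genotypes or with the replicate block, and 1 to 5 with a library left out. In Svil-Mut against WT, 0 members passed, 1 with a pseudocount of 10 or a mean of at least 50 (Myom3 in both, limma adjusted p = 0.0331 and 0.0338), 4 by DESeq2, and 0 to 1 with a library left out. Those with an unadjusted p under 0.05 were 13, 5 without the variance trend, and 6 to 16 with a library left out. Their median log2 fold change of -0.02 was 0.056 with the replicate block and -0.12 to 0.063 with a library left out. In Svil-KO against Svil-Mut, 0 members passed, 2 by DESeq2 and 0 with any library left out, and those with an unadjusted p under 0.05 were 13, 5 without the variance trend, 8 with only the 2 genotypes, and 5 to 14 with a library left out. The cause was not tested.

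All genes called were 0, 6 and 7 in the 3 comparisons. By DESeq2 they were 4, 172 and 212, and in Svil-Mut against WT they were 19 with a pseudocount of 10, 16 with a mean of at least 50, 14 with only the 2 genotypes and 4 to 18 with a library left out. In Svil-KO against Svil-Mut they were 4 to 13 with a library left out. Over 39 results on named genes and 780 alternatives, none reversed and 758 kept their side of the threshold, 12 gained a call and 10 lost one. The 10 were all of Svil, 9 of them against Svil-KO. Only Svil was called in the main fit, in both comparisons that include Svil-Mut. Its call between Svil-KO and Svil-Mut held in 11 of 20 alternatives. The other genes were chosen for a small p in these data. For them, keeping their side means staying uncalled, and a reversal was unlikely from the start.

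Same-numbered libraries did not deviate together (correlations -0.056 to 0.044), so the numbers were not used as pairs. Of WT and Svil-KO, every library correlated best with its own number (0.026, 0.044 and 0.038), a hint from the data only. The largest correlation of any pair was between unlike numbers, WT replicate 3 and Svil-Mut replicate 4 (0.061). The block changed no call on a member, and ended that of Svil between Svil-KO and Svil-Mut (limma adjusted p = 0.148). Number 2 occurs only in Svil-Mut, so the block fits that library exactly and takes it out of the comparisons. The block is thus no clean check of pairing. For Myom3 in Svil-Mut against WT, the log2 fold change was -1.93 with the block and -1.95 without Svil-Mut replicate 2.

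With 3 libraries a group, small differences in uneven genes such as Lmod2, Ankrd1 and Mybph were not detectable.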
